A study of Homo sapiens with 12 samples.

Results

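The genes described here are the human zinc finger genes named ZNF and a number that had a probe above a set mean signal in untreated myeloma cells. A member is any array probe of such a gene (at most 1 letter after the number) whose mean over the 6 control arrays reached 7 in the log2 values that the authors deposited. The rule gave 193 probes of 168 genes, out of 702 probes of 483 ZNF genes on the array and 47322 probes in all. The control arrays therefore chose the members, and their control levels are given as a description without a test. The probes nearest the threshold were ZNF503 at 7.01 and ZNF558 and ZNF559 at 7.03 inside the limit, with ZNF2 at 6.996 and ZNF286B and ZNF788P at 6.997 just outside it.

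Cells of 3 multiple myeloma lines were exposed for 8 h to PRIMA-1Met or to its solvent DMSO as control, and total RNA was measured on 12 Illumina HumanHT-12 arrays. PRIMA-1Met (APR-246) is converted in cells to a product that binds thiol groups, including cysteines of mutant p53. The treated groups were MM.1S (p53 wild type) at 20 µM, U266 (p53 mutant) at 40 µM and 8226R5 (p53 null, spelled 8266R5 in other labels) at 40 µM, and each line had its own DMSO group. Each of the 6 groups had 2 arrays. The labels mention wells seeded in duplicate but do not speak of separate cultures, and p-values therefore cover only the spread of these samples, possibly a technical one. Effects of the line, its p53 status and its dose cannot be told apart. In bulk RNA, fewer cells of a kind and less RNA per cell cannot be told apart either.

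Most ZNF proteins carry an array of C2H2 zinc fingers that reads DNA sequence, and many join it to a KRAB domain. A KRAB domain recruits TRIM28 (KAP1), which brings in the histone methyltransferase SETDB1 and HP1 proteins to silence chromatin, often over transposable elements. A large share of these genes lies in clusters of related copies on chromosome 19. Other ZNF genes lack KRAB and act as activators, RNA-binding proteins or ribosome factors.

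Promoter windows were taken from RefSeq (GRCh38.p14), from 250 bases before to 50 bases after the annotated start, and were found for 142 of the 168 genes (187 windows). The 8 printed here, the first listed window of each gene, are those of the 7 genes with a probe called lower after PRIMA-1Met in all 3 lines, and of ZNF160, which had the largest rise. They are read 5′ to 3′ in the direction of the gene, and capitals mark the ETS core CCGGAAG or its reverse complement CTTCCGG.
ZNF586, chr19:57769426-57769725, plus strand: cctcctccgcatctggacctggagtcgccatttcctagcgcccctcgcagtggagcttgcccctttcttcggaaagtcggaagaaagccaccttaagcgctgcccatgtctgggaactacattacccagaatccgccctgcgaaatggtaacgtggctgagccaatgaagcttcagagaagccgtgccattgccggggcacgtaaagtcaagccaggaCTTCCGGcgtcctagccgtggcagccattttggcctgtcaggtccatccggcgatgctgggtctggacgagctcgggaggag
ZNF22, chr10:45000673-45000972, plus strand: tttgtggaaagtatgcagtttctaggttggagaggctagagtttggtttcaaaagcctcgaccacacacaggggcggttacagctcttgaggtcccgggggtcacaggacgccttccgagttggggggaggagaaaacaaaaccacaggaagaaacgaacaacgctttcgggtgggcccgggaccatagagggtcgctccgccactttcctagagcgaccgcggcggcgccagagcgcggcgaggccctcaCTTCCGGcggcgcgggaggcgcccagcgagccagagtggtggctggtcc
ZNF256, chr19:57947657-57947956, minus strand: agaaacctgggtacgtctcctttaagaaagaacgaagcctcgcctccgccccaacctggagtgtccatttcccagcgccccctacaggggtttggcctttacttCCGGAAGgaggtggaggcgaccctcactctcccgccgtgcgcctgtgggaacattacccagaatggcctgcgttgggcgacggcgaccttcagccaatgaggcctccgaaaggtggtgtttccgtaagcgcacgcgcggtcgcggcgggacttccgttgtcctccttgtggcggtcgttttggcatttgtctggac
ZNF17, chr19:57410911-57411210, plus strand: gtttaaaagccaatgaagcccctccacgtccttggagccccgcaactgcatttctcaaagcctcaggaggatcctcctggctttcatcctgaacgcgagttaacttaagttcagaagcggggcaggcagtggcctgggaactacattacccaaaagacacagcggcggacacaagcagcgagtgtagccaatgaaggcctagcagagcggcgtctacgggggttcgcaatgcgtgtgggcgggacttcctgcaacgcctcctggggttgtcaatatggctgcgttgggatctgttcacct
ZNF217, chr20:53593790-53594089, minus strand: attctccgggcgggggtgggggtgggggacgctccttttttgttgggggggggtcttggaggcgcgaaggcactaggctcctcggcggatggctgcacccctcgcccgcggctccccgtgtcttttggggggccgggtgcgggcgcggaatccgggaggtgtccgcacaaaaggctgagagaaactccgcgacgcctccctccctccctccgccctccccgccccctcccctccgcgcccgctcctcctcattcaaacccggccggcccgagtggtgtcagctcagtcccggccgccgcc
ZNF583, chr19:56403764-56404063, plus strand: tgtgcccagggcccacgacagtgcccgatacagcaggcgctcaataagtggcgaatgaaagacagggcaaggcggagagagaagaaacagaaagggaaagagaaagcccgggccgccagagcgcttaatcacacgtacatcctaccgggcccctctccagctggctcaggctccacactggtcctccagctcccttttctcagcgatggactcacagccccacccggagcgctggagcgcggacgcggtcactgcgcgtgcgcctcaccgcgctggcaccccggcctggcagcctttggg
ZNF33B, chr10:42638521-42638820, minus strand: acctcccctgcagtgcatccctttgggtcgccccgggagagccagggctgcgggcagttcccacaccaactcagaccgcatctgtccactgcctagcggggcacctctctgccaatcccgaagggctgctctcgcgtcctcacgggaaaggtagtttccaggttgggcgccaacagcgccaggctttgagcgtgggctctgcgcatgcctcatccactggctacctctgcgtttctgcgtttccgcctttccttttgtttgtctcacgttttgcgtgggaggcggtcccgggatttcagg
ZNF160, chr19:53103373-53103672, minus strand: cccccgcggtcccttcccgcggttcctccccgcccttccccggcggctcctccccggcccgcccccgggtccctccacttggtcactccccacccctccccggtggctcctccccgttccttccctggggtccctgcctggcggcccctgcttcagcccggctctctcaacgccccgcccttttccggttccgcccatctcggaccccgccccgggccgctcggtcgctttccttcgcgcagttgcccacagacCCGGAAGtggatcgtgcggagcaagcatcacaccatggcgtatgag
The core began at position 219 of the ZNF586 window, 252 in ZNF22, 105 in ZNF256 and 255 in ZNF160, counted from 1 at the 5′ end, and these letters were not in the windows of ZNF17, ZNF217, ZNF583 and ZNF33B. Of the 7 genes called lower in all lines, 3 therefore had the core in this window. Of the 187 member windows 33.2% held the ETS core on either strand, against 10.3% of the 35116 windows in the table and 18.9% of the 9486 windows of genes with a probe at the same control level. The CCAAT box (CCAAT) was in 47.6% of member windows, against 34.6% of all windows and 36.5% of those at the same level. TATAAA was in 1.07%, against 11.5% and 5.99%. These were 3 of 12 motifs searched, and a match describes letters only. The median changes of members with and without the ETS core were -0.36 and -0.29 log2 units in MM.1S, -0.01 and 0.07 in U266, and -0.08 and -0.08 in 8226R5.

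Between 11815 and 16025 probes per array passed a detection p of 0.01, with the fewest on the treated MM.1S arrays. Before normalization the median signal of the 193 probes was 75.5 and 74.8 intensity units on the treated MM.1S arrays, against 275 and 255 on the MM.1S controls. It was 249 and 236 in treated U266 cells against 391 and 391 in U266 controls, and 292 and 277 in treated 8226R5 cells against 250 and 263 in 8226R5 controls. Quantile normalization removes such shifts, so every change below is relative to the other probes of the array. Replicates of treated MM.1S were the noisiest, with an SD of the replicate difference of 0.46 log2 units, against 0.19 to 0.27 in the other groups. Of 11 plasma cell marker genes 10 were detected in MM.1S and 9 in U266, but 4 (MZB1, PRDM1, SDC1 and XBP1) in 8226R5, where IRF4, JCHAIN, TNFRSF17, CD38, SLAMF7, POU2AF1 and CD27 were undetected on every array. Of 24 markers of other cell types 4 were detected in MM.1S, 6 in U266 and 9 in 8226R5, and 13 were never detected. ALB, CD14 and FCGR3A were detected in all 3 lines, HBB in MM.1S, CD8A in U266, and KRT18 and COL1A1 in U266 and 8226R5, while the epithelial genes KRT8 and EPCAM and the T cell genes CD3D and CD3E were detected in 8226R5 and in neither other line. The 8226R5 markers go against the plasma cell label, so counts over all 3 lines are given with and without that line. The summed signal of the plasma cell list was 30058 and 30708 on the treated MM.1S arrays against 126470 and 128771 on MM.1S controls, and 24630 and 22728 on treated U266 arrays against 63104 and 61885 on U266 controls. In 8226R5 it was 4356 and 4596 on treated arrays against 4003 and 3853 on controls. Of the 16 tested plasma cell probes 10 fell and 3 rose in MM.1S, 9 fell and 1 rose in U266, and 4 fell in 8226R5. The summed signal of the other list was 1759 and 1657 on treated MM.1S arrays against 846 and 810 on MM.1S controls, 865 and 787 on treated U266 arrays against 453 and 422 on U266 controls, and 35209 and 33508 on treated 8226R5 arrays against 28933 and 28132 on 8226R5 controls. The part of these shifts in the ZNF results was not tested.

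Control levels of the 193 probes over all 6 control arrays ran from 7.01 to 15.3, with a median of 8.07, on the authors' log2 scale. Unless a mean over all controls is named, log2 signals from here on are those of the fit, normalized anew from the deposited signals. On that scale the control means differed between lines by a median of 0.81 log2 units, and 17 probes differed by 2 or more. ZNF544 had the widest range, with control means of 5.33 in MM.1S, where it was undetected, 11.35 in U266 and 8.78 in 8226R5. ZNF91, a primate repressor of SVA transposable elements, was undetected in 8226R5 and had control means of 7.36 in MM.1S and 8.35 in U266.

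In MM.1S most members moved, and in both directions. Of the 193 probes 62 rose (32.1%) and 92 fell (47.7%) at a limma adjusted p under 0.05, over all 19357 tested probes. The background was 25.5% up and 45.3% down over all tested probes, and 24.6% up and 56.2% down over the 12056 probes at the same control level. The median change of the members was -0.29 log2 units, against -0.49 at the same control level. Of the calls, 38 rises and 48 falls of the 193 members exceeded 1 log2 unit, against 1501 and 3338 of the 12056 probes at the same level. The split of directions rests on the scaling: median scaling on all probes gave 25 rises and 161 falls, and median scaling on probes detected on all arrays gave 99 and 46. Under these scalings the members' median was -1.47 against -1.77 for probes at the same level, and 0.29 against -0.02. The split also rests on the filter: with only probes detected on all 12 arrays kept, 55 members rose and 44 fell, with a median of 0.18.

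In U266 the changes were smaller: 33 probes rose (17.1%) and 26 fell (13.5%), with a median of 0.00. The background was 12.6% up and 15.1% down over all tested probes, and 15.1% and 17.1% at the same control level, so the members' shares lay near it. Median scaling on all probes gave 9 rises and 137 falls, with a members' median of -0.56 against -0.53 at the same level.

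In 8226R5 the members moved mainly down. There 4 probes rose (2.07%) and 26 probes of 23 genes fell (13.5%), against a background of 5.53% up and 4.97% down over all tested probes and 6.33% and 5.81% at the same control level. Their median change was -0.08, against 0.00 over all tested probes. Median scaling on all probes turned the balance to 51 rises and 16 falls, although the fallen share (8.29%) was again above that at the same level (3.21%). The number of falls in 8226R5 was 10 or 11 when any of the 8226R5 arrays was left out, 38 without either treated MM.1S array, and 21 to 26 without any other. For the mean of the 3 lines 56 members rose (29.0%) and 76 fell (39.4%), against 22.2% and 39.1% of all tested probes and 21.6% and 48.5% at the same control level. For the mean of MM.1S and U266 alone, an alternative added after seeing the data, 59 rose (30.6%) and 74 fell (38.3%), against 24.3% and 42.8% of all tested probes and 23.4% and 51.9% at the same level.

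**Figure D1:**
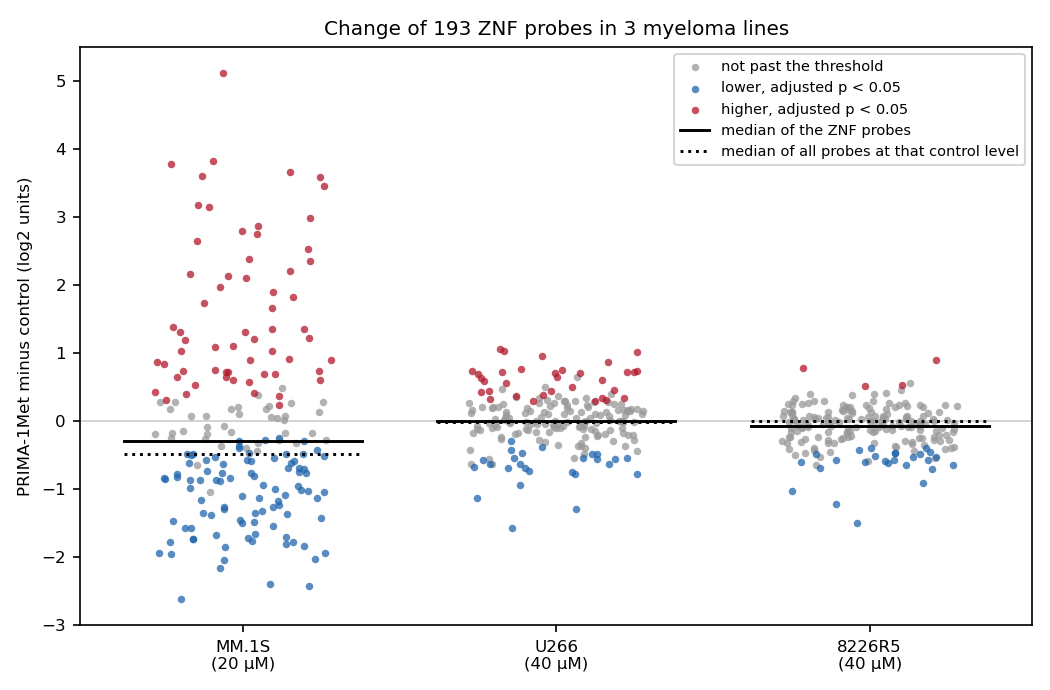
Change of each of the 193 ZNF probes (PRIMA-1Met minus control, log2 units, vertical axis) in the 3 lines (horizontal axis, dose in brackets), coloured by limma call. Solid bars are the medians of the ZNF probes (-0.29, 0.00 and -0.08) and dotted bars those of all probes at the same control level; the spread is widest in MM.1S.

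**Figure D2:**
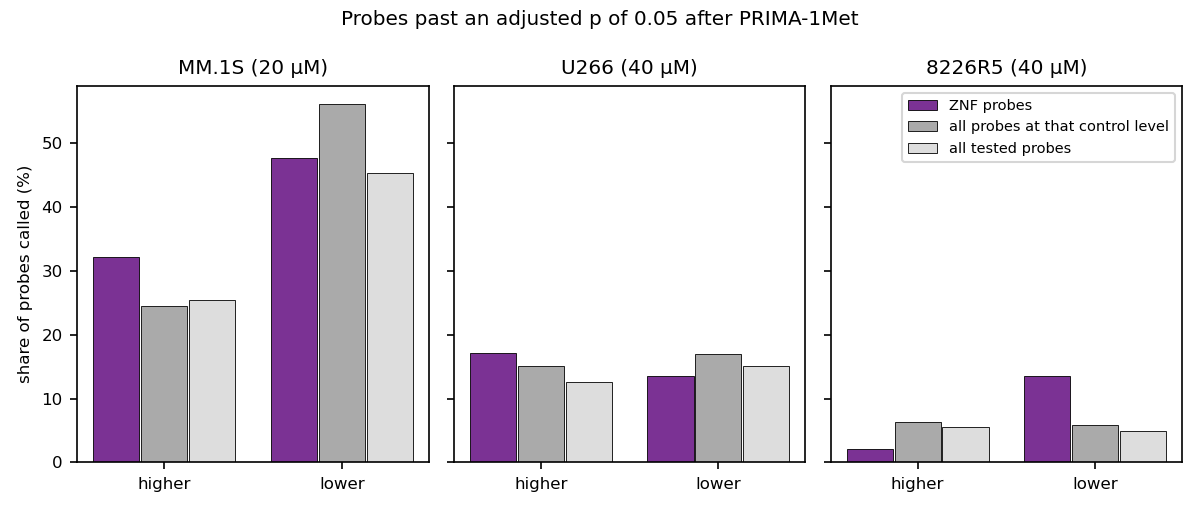
Share of probes called higher or lower (percent, vertical axis) among the 193 ZNF probes, all probes at the same control level and all tested probes, in each line. The fallen share of ZNF probes in 8226R5 (13.5%) stands above both backgrounds (5.81% and 4.97%).

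Among the members, 9 probes of 7 genes were called lower in all 3 lines (4.66%), against 0.749% of all tested probes and 1.02% of those at the same control level, and 0 rose in all 3, against 0.703% and 0.763%. At an unadjusted limma p under 0.05 the member counts were 18 lower and 7 higher. The share over all probes was not counted at that threshold, so these counts have no background. Without 8226R5, 21 members fell in both other lines (10.9%, against 9.98% of all tested probes and 12.1% at the same level) and 24 rose in both (12.4%, against 7.22% and 8.52%). The 7 genes called lower in all 3 lines were ZNF217, ZNF17, ZNF583, ZNF33B, ZNF256 and, with 2 probes each, ZNF586 and ZNF22. The 9 probes became 12 under median scaling on all probes and 3 to 14 when single arrays were left out. The lowest counts came without an 8226R5 array (3 to 5) or without the second U266 control array (4), and the highest without a treated MM.1S array (13 and 14).

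ZNF217, a transcriptional repressor gene that is often amplified in breast cancer, had the largest fall in U266. Its log2 signal was 7.92 and 7.80 in treated MM.1S cells, against 9.61 and 9.82 in MM.1S controls. It was 8.31 and 8.41 in treated U266 cells against 9.86 and 10.03 in U266 controls, and 8.56 and 8.38 in treated 8226R5 cells against 9.0 and 8.99 in 8226R5 controls. Both treated arrays lay below both controls in each line. The changes were -1.86 ± 0.11, -1.58 ± 0.11 and -0.53 ± 0.11 (SE), with limma adjusted p of 8.67e-07, 3.46e-05 and 0.0192. The 8226R5 call was lost without any of the 4 arrays of that line and under median scaling on all probes.

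For ZNF586 and ZNF22, 2 member probes each were called lower in all 3 lines. ZNF22, a KRAB-less zinc finger gene, had a log2 signal of 10.36 and 10.39 on its brighter probe in treated MM.1S cells, against 11.34 and 11.29 in MM.1S controls. It was 9.33 and 9.19 in treated U266 cells against 9.94 and 9.97 in U266 controls, and 9.44 and 9.42 in treated 8226R5 cells against 9.97 and 9.92 in 8226R5 controls. No treated array of this probe overlapped the controls of its line. The brighter probe changed by -0.94 ± 0.08, -0.69 ± 0.08 and -0.52 ± 0.08 (limma adjusted p 6.04e-06, 0.000396 and 0.00443). The dimmer probe changed by -1.0, -0.55 and -0.48, and its 8226R5 call (limma adjusted p = 0.0112) was lost without 3 of the 4 arrays of that line and under median scaling on all probes.

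ZNF586, a KRAB zinc finger gene, had 8.39 and 8.16 on its brighter probe in treated MM.1S cells against 9.27 and 9.47 in MM.1S controls. It had 8.56 and 8.49 in treated U266 cells against 9.35 and 9.18 in U266 controls, and 7.84 and 8.06 in treated 8226R5 cells against 8.71 and 8.57 in 8226R5 controls. The changes were -1.10 ± 0.13, -0.74 ± 0.13 and -0.69 ± 0.13 (limma adjusted p 4.78e-05, 0.00295 and 0.0106), and those of the dimmer probe -0.63, -0.63 and -0.60. The groups did not overlap on either probe. One more ZNF586 probe, below the control threshold at 6.35, changed by -0.55, -0.60 and -0.03 and passed the test in none of the lines.

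ZNF17, a KRAB gene, was undetected on both treated MM.1S arrays, where its log2 signal was 5.38 and 4.95 against 7.58 and 7.62 in MM.1S controls. For such probes the treated level was set no lower than the dimmest detected probe of each array, which makes ZNF17 at least 1.87-fold lower in treated MM.1S cells (limma adjusted p = 3.36e-06). Its signal was 7.12 and 6.57 in treated U266 cells against 7.57 and 7.50 in U266 controls, and 6.86 and 6.90 in treated 8226R5 cells against 8.08 and 8.14 in 8226R5 controls. The changes were -0.69 ± 0.18 in U266 and -1.23 ± 0.18 in 8226R5 (limma adjusted p 0.0232 and 0.00435).

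ZNF583, also a KRAB gene, was at least 1.19-fold lower in treated MM.1S cells, where it was undetected, and changed by -0.94 ± 0.14 in U266 and -0.57 ± 0.14 in 8226R5 (limma adjusted p 0.00137 and 0.0325). ZNF33B, another KRAB gene, changed by -1.11, -0.29 and -0.40 in MM.1S, U266 and 8226R5. A ZNF33B probe below the control threshold (6.50) instead rose by 0.82 in MM.1S (limma adjusted p = 0.0139). ZNF256, a KRAB gene named here after its values were seen, changed by -0.47 in U266 and -0.58 in 8226R5 but was undetected in all MM.1S arrays, so its MM.1S call compares values at background.

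**Figure D3:**
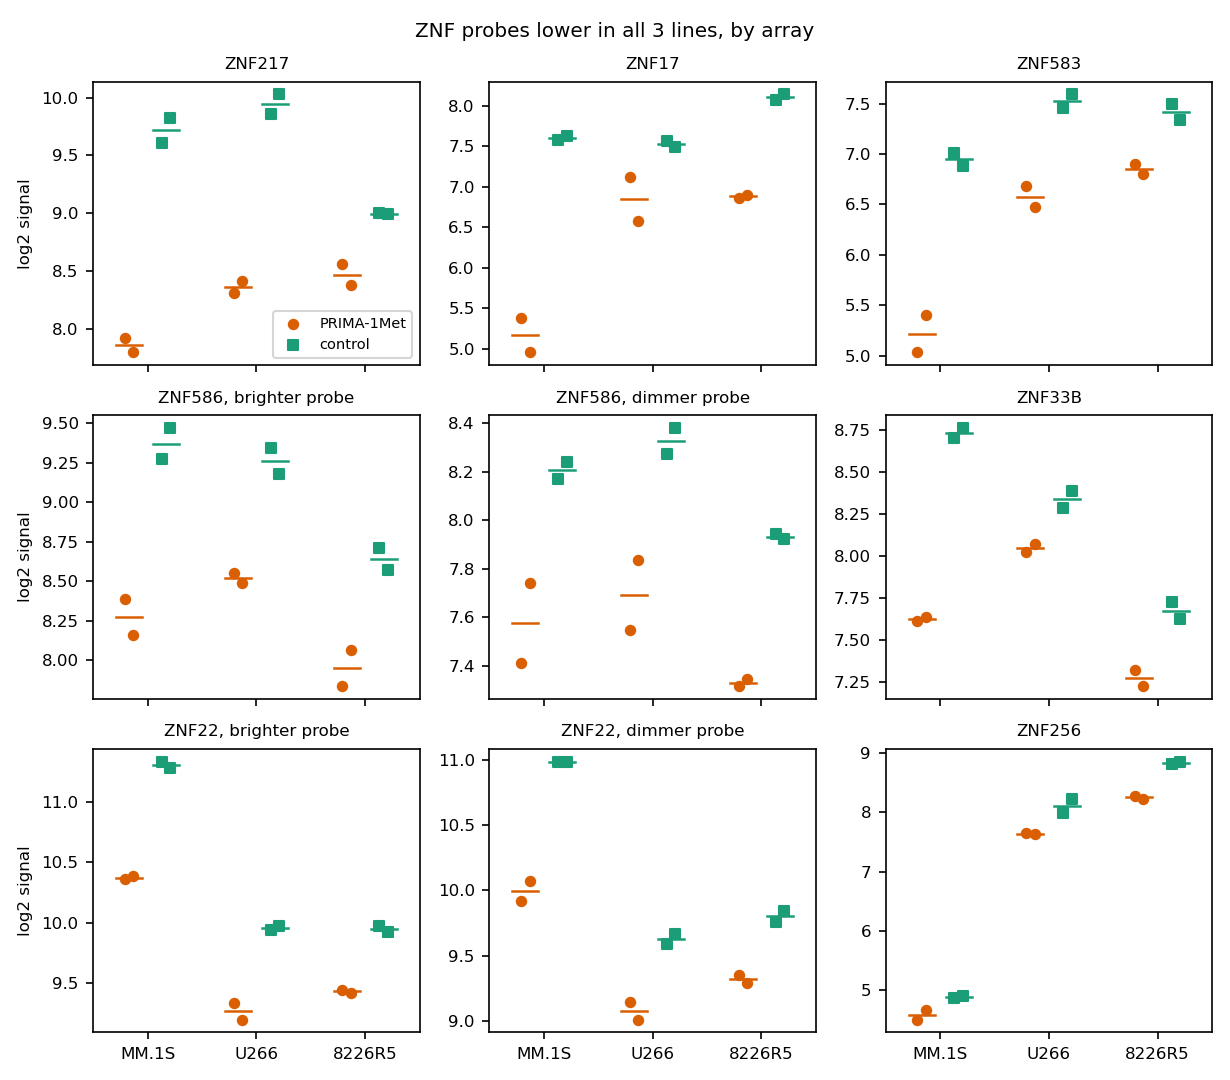
Log2 signal on each array (vertical axis) of the 9 ZNF probes called lower in all 3 lines, with PRIMA-1Met (circles) left of control (squares) and bars at the means of 2 arrays. Circles lie below squares in each line, while the MM.1S values of ZNF256 and the treated MM.1S values of ZNF17 and ZNF583 were undetected.

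The largest rises were all in MM.1S. ZNF160, a KRAB gene, had 11.12 and 10.99 in treated MM.1S cells against 6.11 and 5.75 in MM.1S controls, where 1 of the 2 arrays detected it. The change was 5.12 ± 0.17 (limma adjusted p = 2.98e-08), against 0.70 ± 0.17 in U266 and 0.56 ± 0.17 in 8226R5 (limma adjusted p 0.0161 and 0.075). Another ZNF160 probe, below the control threshold at 6.58, changed by 0.28 in MM.1S (limma adjusted p = 0.477).

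ZNF320, ZNF223, ZNF577, ZNF669 and ZNF483, all KRAB genes, followed with rises of 3.83, 3.79, 3.67, 3.60 and 3.60 in MM.1S. The dimmer ZNF669 member probe rose there by 0.72. A ZNF320 probe below the control threshold, at 5.59, changed by 0.74 in MM.1S (limma adjusted p = 0.236). ZNF577 had 12.33 and 12.32 in treated MM.1S cells against 8.66 and 8.65 in MM.1S controls, and 9.93 and 9.99 in treated U266 cells against 8.92 and 8.87 in U266 controls. Its U266 rise of 1.06 ± 0.08 and that of ZNF483, 1.03 ± 0.08, were the largest there (limma adjusted p 4.16e-05 and 6.82e-05). In 8226R5 these probes changed by 0.21 and 0.25 (limma adjusted p 0.128 and 0.0887). The ZNF320 member probe changed by -0.18 in U266 and 0.26 in 8226R5 (limma adjusted p 0.133 and 0.0791). Its difference of MM.1S from U266 was 4.01 log2 units.

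Calls were in part shared between lines. Of the 33 probes up in U266, 24 were also up in MM.1S (72.7% of the U266 rises and 38.7% of the 62 MM.1S rises). Over all tested probes those shares were 57.3% and 28.3%, and at the same control level 56.4% and 34.7%. Of the 26 down in U266, 21 were down in MM.1S (80.8% and 22.8%), against 65.9% and 22% of all tested probes and 71.2% and 21.6% at the same level. Of the 26 down in 8226R5, 17 were down in MM.1S (65.4% and 18.5%), against 36.0% and 3.95% of all tested probes and 40.7% and 4.21% at the same level. The 9 down in both 8226R5 and U266 were 34.6% of each list, against 29.4% of the 8226R5 falls and 9.66% of the U266 falls over all tested probes, and 33.4% and 11.4% at the same level. Across the 193 probes the Spearman correlation of changes was 0.38 between MM.1S and U266, 0.26 between MM.1S and 8226R5 and 0.34 between U266 and 8226R5. Over the 12056 probes at the same control level it was 0.34, -0.10 and -0.02. These correlations are across probes, which are not independent and share arrays within a line.

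The brightest members mostly rose in MM.1S and U266. Of the 21 member probes with a control mean of at least 10, a level looked at after the values were seen, 15 rose and 5 fell in MM.1S, against 19.9% and 63.9% of the 3228 tested probes at that level. In U266 11 rose and 3 fell, against 15.3% and 18.3%, and in 8226R5 1 rose and 2 fell, against 5.17% and 4.99%. For 13 of the 21 the gene had another probe on the array, and in 9 cases the control mean of that other probe was under 8. All 9 of these bright probes rose in MM.1S and 8 rose in U266.

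Of the 9 dimmer partners, 2 were detected on too few arrays to be tested. Of the 7 tested, 2 rose in MM.1S (those of ZNF14 and ZNF598) and 1 in U266, and none fell in either line. ZNF430, a KRAB gene, had a control mean on the authors' scale of 13.7 on one probe and 6.47 on the other, and changed by 1.73 and 0.38 in MM.1S and by 0.37 and 0.67 in U266. ZNF549 had 12.8 and 6.80, and changed by 2.36 and -0.04. ZNF682 had 11.4 and 6.13, and changed by 3.15 and 0.16.

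ZNF394, which encodes a SCAN and KRAB protein, shows the disagreement within the members. Its brighter probe had 14.57 and 14.52 in treated MM.1S cells against 11.37 and 11.35 in MM.1S controls, a change of 3.19 ± 0.08 (limma adjusted p = 8.1e-09). Its dimmer probe had 7.95 and 7.63 in treated MM.1S cells against 8.06 and 8.05 in MM.1S controls, a change of -0.27 ± 0.17 (limma adjusted p = 0.185). Both probes of ZNF14 rose in MM.1S, by 2.75 and 1.39, and in U266, by 0.64 and 0.61.

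Over the 25 genes with 2 member probes, the probes' MM.1S changes differed by a median of 0.73 log2 units, and by more than 1 in 11 genes (44%). Over 1455 genes with 2 probes at the same control level the median was 0.48 and the share over 1 was 27.1%. ZNF280D and ZNF644 had 1 probe called up and 1 called down in MM.1S (8% of the 25 genes, against 8.11% of the 1455). ZNF644, a partner of the histone methyltransferases EHMT1 and EHMT2, changed there by 1.35 and -0.76. Of the 62 MM.1S rises 24 had another tested probe of the gene. For 11 of these (45.8%) such a probe also rose, and for 3 such a probe fell. Of the 92 falls 31 had one, which also fell for 19 (61.3%) and rose for 6. Of the 26 falls in 8226R5, 9 had one and 6 were matched (66.7%). These 6 are both probes of ZNF22, ZNF586 and ZNF823, so each of these genes counts 2 times. Over all probes at the same control level 24.6% rose and 56.2% fell in MM.1S, and 5.81% fell in 8226R5. What sets probes of one gene apart was not tested.

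**Figure D4:**
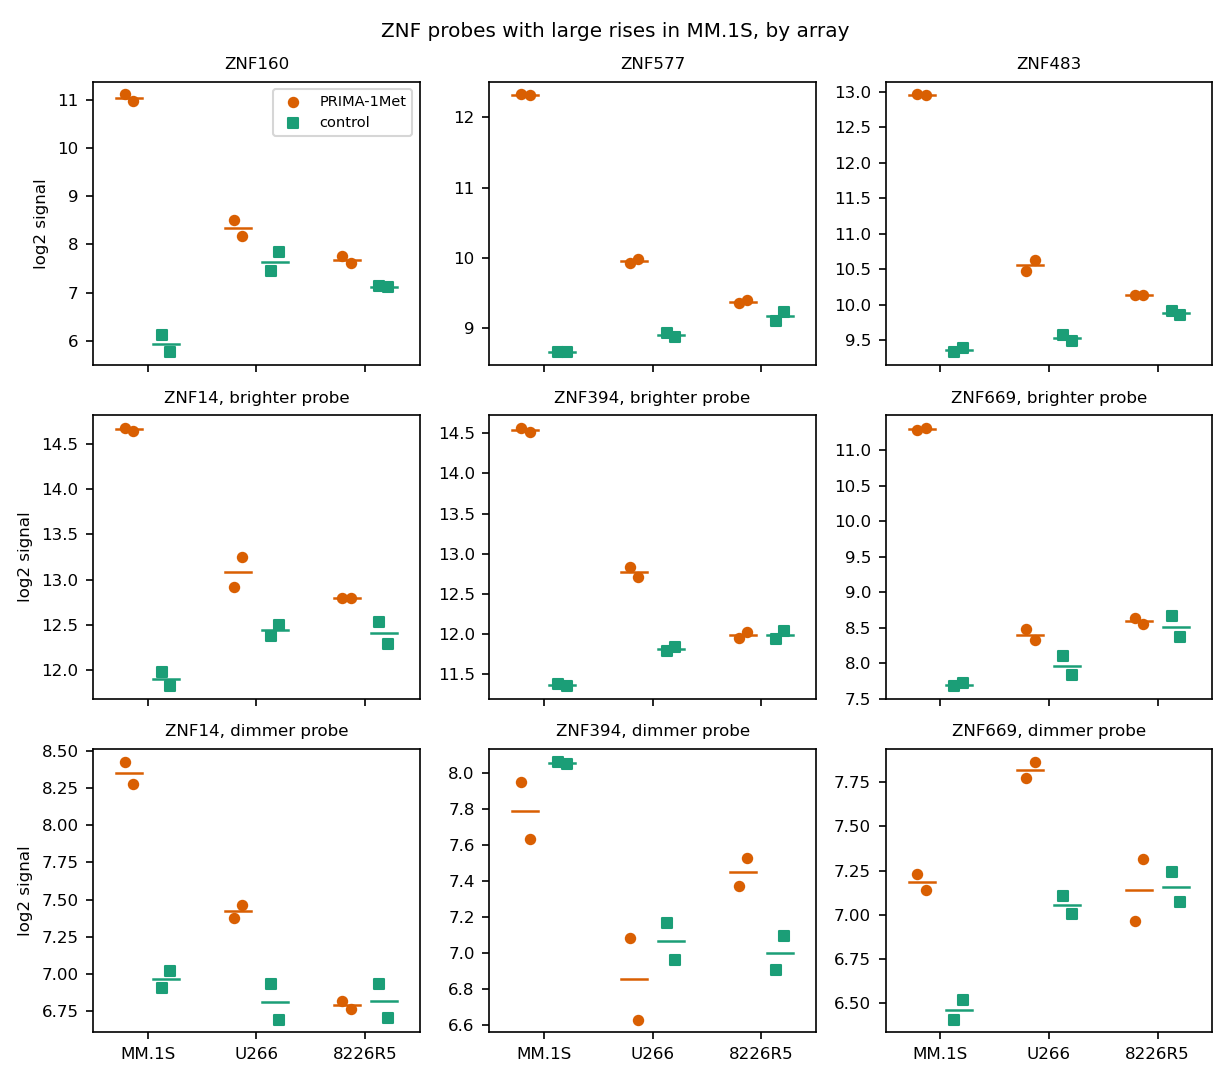
Log2 signal on each array (vertical axis) for ZNF probes with large MM.1S rises, PRIMA-1Met (circles) left of control (squares), with bars at the means of 2 arrays. The lower rows set the brighter and dimmer probes of ZNF14, ZNF394 and ZNF669 above each other: the ZNF394 probes moved by 3.19 and -0.27 in MM.1S.

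**Figure D5:**
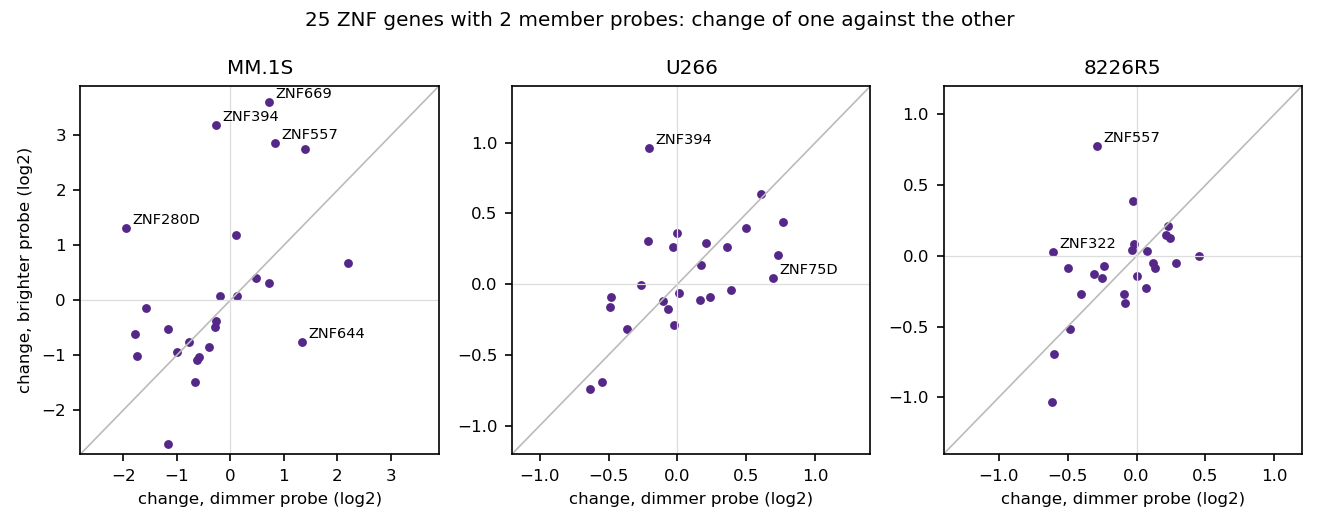
Change of the brighter probe (vertical axis, log2 units) against that of the dimmer probe (horizontal axis) for the 25 ZNF genes with 2 member probes, by line, with the line of equality. Axes differ between lines; in MM.1S 11 of the genes lie more than 1 log2 unit from equality.

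Among the falls in MM.1S over all tested probes, 3554 of 8776 ended undetected on both treated arrays. At the same control level it was 1644 of 6773 falls, and among the members 44 of 92. For 24 of these 44 members a lower bound of the fold could be given, from 1.02 to 3.28. For the other 20, of which 2 were undetected in the controls too, no fold is given. ZNF410, an activator with few targets of which CHD4 is the main one, had 6.00 and 6.50 in treated MM.1S cells against 8.28 and 8.55 in MM.1S controls. It was at least 3.28-fold lower there (limma adjusted p = 2.97e-06) and changed by 0.15 in U266 and 0.23 in 8226R5. CHD4 itself, a chromatin remodeller, changed in MM.1S by -0.22 and -0.03 on its 2 probes. ZNF559 was at least 2.70-fold lower, ZNF200 at least 2.31-fold and 1.41-fold on its 2 probes, ZNF627 at least 1.61-fold and ZNF564 at least 1.61-fold. ZNF121, which encodes a MYC-binding protein, was at least 1.33-fold lower.

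ZNF121 moved in opposite directions in the lines. Besides its MM.1S fall it had 6.09 and 5.97 in treated U266 cells, 1 of them undetected, against 7.37 and 7.27 in U266 controls. In treated 8226R5 cells it had 7.28 and 7.62, against 6.54 and 6.56 in 8226R5 controls. The changes were -1.30 ± 0.11 in U266 and 0.90 ± 0.11 in 8226R5 (limma adjusted p 0.000109 and 0.0023), and the difference of U266 from 8226R5 was -2.19. ZNF24, a SCAN gene, fell by 1.14 in U266 and changed by 0.07 in 8226R5 (limma adjusted p 0.00211 and 0.873).

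Of the 26 falls in 8226R5, 25 were detected on both treated arrays, and the changes ran from -1.50 to -0.39. ZNF443, a KRAB gene, had 5.96 and 6.25 in treated 8226R5 cells against 7.54 and 7.67 in 8226R5 controls, a change of -1.50 ± 0.14 (limma adjusted p = 0.000735). ZNF823, also KRAB, had 6.70 and 7.07 on its brighter probe in treated 8226R5 cells against 7.94 and 7.90 in 8226R5 controls, a change of -1.03 ± 0.16, and -0.61 ± 0.10 on its dimmer probe (limma adjusted p 0.00452 and 0.00775). In MM.1S these ZNF823 probes changed by 0.07 and -0.20, and in U266 by 0.27 and -0.03, none past the threshold. ZNF594 changed by -0.91 with 1 treated array undetected.

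In MM.1S, 5 of the 26 probes that fell in 8226R5 rose (19.2%). Over all probes at the same control level 24.6% rose in MM.1S. ZNF324, a KRAB gene, had 7.74 and 7.79 in treated 8226R5 cells against 8.46 and 8.50 in 8226R5 controls, but 9.88 and 9.85 in treated MM.1S cells against 7.76 and 7.65 in MM.1S controls. The changes were -0.71 ± 0.08 and 2.16 ± 0.08 (limma adjusted p 0.00129 and 4.76e-08). ZNF493, a KRAB gene, changed by -0.47 in 8226R5, 1.67 in MM.1S and 0.75 in U266. ZNF692, ZNF524 and ZNF580, named after their values were seen, changed by -0.65, -0.43 and -0.47 in 8226R5 and by 1.83, 1.30 and 0.61 in MM.1S. The 4 rises in 8226R5 were ZNF121, the brighter ZNF557 probe (0.78), ZNF428 (0.53) and ZNF263 (0.52). The dimmer ZNF557 member probe changed by -0.29 there and was not called.

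The change differed between lines for 145 of the 193 probes by a limma F test (75.1%, against 69.1% of all tested probes and 78.7% at the same control level). U266 minus 8226R5 was called for 43 probes, 32 higher and 11 lower in U266 (16.6% and 5.70%, against 9.68% and 12.1% of all tested probes and 11.4% and 13.2% at the same control level). MM.1S minus U266 was called for 134 probes, 59 higher and 75 lower in MM.1S, or 30.6% and 38.9%, against a background of 23.1% and 37.1% over all tested probes and 21.9% and 48% at the same level. MM.1S minus 8226R5 was called for 136, 64 higher and 72 lower in MM.1S, or 33.2% and 37.3%, against 23.9% and 39.7% and, at the same level, 23.2% and 49.7%.

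Genes of described function, within KRAB silencing or outside it, were listed by name, and 21 of the 29 listed genes are members. Of the translation and ribosome factors, ZNF598, the ubiquitin ligase that marks collided ribosomes, rose by 0.31 and 0.72 in MM.1S on its 2 probes, ZNF593 rose by 0.86, and ZNF622, a factor of large ribosomal subunit maturation, fell by 0.30. The rises of ZNF598 and ZNF593, and those of ZNF148, ZNF281, ZNF91 and the ZNF644 probe in MM.1S, turned to falls under median scaling on all probes. ZNF281, a stem cell regulator, rose by 0.65 in MM.1S and fell by 0.64 in U266 (limma adjusted p 0.000549 and 0.003). ZNF148 (ZBP-89) rose by 0.61 in MM.1S, and ZNF91 rose by 1.21 in MM.1S and 0.72 in U266.

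ZNF207 (BuGZ), a kinetochore protein that binds BUB3, fell in MM.1S on both probes, by 1.03 and 0.58. ZNF143, an activator of small RNA genes, changed by -0.75 in MM.1S (limma adjusted p = 0.00165) and by 0.12 and -0.01 in U266 and 8226R5. ZNF146 changed by -0.84, ZNF746 (PARIS), a Parkin substrate, by -0.70 and the nucleolar ZNF330 by -0.76 and -0.78 in MM.1S. The dimmer ZNF330 probe rose by 0.73 in U266, where the brighter one changed by 0.20. ZNF274, which brings SETDB1 to ZNF gene clusters, changed by -0.15 in MM.1S on its brighter probe, and its dimmer probe was undetected after treatment. ZNF346 (JAZ), which binds double-stranded RNA, rose by 1.02 ± 0.14 in U266 (limma adjusted p = 0.00124). In MM.1S it was called lower (limma adjusted p = 0.0107) and was undetected on both treated arrays. ZNF384, ZNF395 and the 2 ZNF706 probes changed in MM.1S by -0.59, -0.25, -0.48 and -0.29, with limma adjusted p of 0.048, 0.0415, 0.0299 and 0.207.

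Of the 193 probes 75 lie on chromosome 19. In MM.1S 33 of these rose and 28 fell (44% and 37.3%, median 0.07). Of the 118 on other chromosomes 29 rose and 64 fell (24.6% and 54.2%, median -0.46). These lay near the 24.6% and 56.2% of all probes at the same control level (median -0.49). The 529 other probes of chromosome 19 at the same control level had a higher median, 0.34, with 278 up and 114 down (52.6% and 21.6%). In 8226R5 14 of the 75 fell and 3 rose (18.7% and 4%), against 32 falls and 34 rises among the 529 (6.05% and 6.43%). Of the 118 members on other chromosomes 12 fell and 1 rose there (10.2% and 0.847%), against 5.81% and 6.33% of all probes at the same control level. Adjacent members formed 13 runs: in MM.1S all probes rose in 3 and fell in 1, calls went 1 way with some probes uncalled in 5, and both directions occurred in 4. Among the first, all 4 member probes of ZNF14, ZNF682 and ZNF486 and all 3 of ZNF430, ZNF738 and ZNF493 rose in MM.1S. In U266 3 of those 4 and all of those 3 rose. Dimmer probes of ZNF682 and ZNF430, below the control threshold, changed by 0.16 and 0.38 in MM.1S (limma adjusted p 0.251 and 0.172). The run of 8 probes around ZNF17, from ZNF548 to ZNF211, held 2 rises and 4 falls in MM.1S, and that of ZNF577 to ZNF480 held 1 rise and 3 falls among 5. On chromosome 10, the member probes of ZNF248, ZNF25, ZNF33A and ZNF33B all fell in MM.1S (4 of 4, median -1.24). The ZNF33B probe below the control threshold instead rose there by 0.82. On chromosome 16, 5 of the 7 member probes of ZNF213, ZNF200, ZNF263, ZNF75A and ZNF174 fell in MM.1S by limma. The other 2 passed no test there. The MM.1S counts in these runs stand beside the 24.6% up and 56.2% down of all probes at the same control level. Related genes share sequence, and cross-hybridisation between copies was not tested.

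The proteins that carry out KRAB silencing were followed through 26 listed genes, 23 of them with 29 tested probes. In MM.1S 8 of these probes rose and 17 fell (27.6% and 58.6%), against 25.5% and 45.3% of all tested probes and 24.6% and 56.2% at a control mean of at least 7. In U266 2 rose and 6 fell (6.90% and 20.7%, against 12.6% and 15.1% of all tested probes), and in 8226R5 3 rose (10.3%, against 5.53%) and 0 fell by limma (3 at an unadjusted p under 0.05). TRIM28 rose by 0.38 ± 0.08 in MM.1S (limma adjusted p = 0.0025) and changed by 0.23 and 0.23 in U266 and 8226R5. SETDB1 changed by 0.09, 0.24 and -0.15 and passed the test in none of the lines. The HP1 genes CBX5 and CBX3 rose in MM.1S, by 1.99 and by 1.94 and 1.03, while CBX1 fell by 0.94. Of other zinc finger families chosen by the same control level, ZBTB genes (20 probes) had 5 rises and 11 falls in MM.1S (25% and 55%), near the 24.6% and 56.2% of all probes at that level. They had 2 and 5 in U266 (10% and 25%, against 15.1% and 17.1%) and 1 and 2 in 8226R5 (5% and 10%, against 6.33% and 5.81%). The 9 SCAN-type ZSCAN and ZKSCAN probes had 0 rises (0 also at an unadjusted limma p under 0.05) and 8 falls in MM.1S (88.9%), and the 5 ZFP probes had 2 and 3 (40% and 60%), against the same 24.6% and 56.2%.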

How the data were processed

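The deposited table of probes holds, per the file headers, a background-subtracted signal in intensity units for each probe and array, not normalized between arrays, with a detection p-value beside it. A second deposited table holds log2 values that the authors quantile normalized, and its 6 control arrays chose the members. BeadStudio, lumi and limma were used, per the submitters' processing notes. For the probes, the genome build is not given in the sources used.

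Columns were matched to the 12 samples by title, and 0 columns were left over. On 9 arrays the signals were displaced by 1 row from row 22924 on. They were realigned, after which each array's Spearman correlation with the authors' values was 1 (0.511 to 0.529 before), and 47321 of 47322 probes were analysed. Probe symbols came from the platform annotation: 30112 probes had 1 symbol, 8 several and 17202 none.

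Signals were corrected with neqc (offset 16), quantile normalized and put on the log2 scale with limma 3.58.1 in R 4.3.3. The 19357 probes detected (p under 0.01) on at least 2 arrays were fitted with 1 mean for each of the 6 groups, leaving 6 residual degrees of freedom, with eBayes and two-sided tests adjusted by Benjamini-Hochberg over all tested probes. All 193 members passed this filter. Contrasts between lines, an F test and the mean of the 3 lines came from the same fit. The script was tested on simulated data. The number of arrays, 2 in each group, limits the precision.

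Replicate numbers did not pair treated with control arrays: their deviations correlated at 0.025, 0.004 and 0.009 in MM.1S, U266 and 8226R5. The members and lists were chosen with earlier results of these data known. Named genes are the 6 largest changes each way in each line, the 8 largest falls shared by all lines, the 3 largest each way in each difference between lines, and 29 genes of described function. Others are said to be named after their values were seen, or illustrate a count of probes, family or neighbouring genes. Alternatives changed the background correction, scaling, filter, threshold, block and replicates. Grouping members by protein domains was not analysed here.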

Additional observations from a re-analysis of the deposited data

Results flagged for a closer look

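Differences in response between the lines were tested within the limma fit, and the largest are given here as the difference of 2 changes in log2 units. MM.1S exceeded U266 by 4.42 for ZNF160, 4.01 for ZNF320 and 3.19 for ZNF503, the last of which was undetected in U266. It lay below U266 by differences of -2.52 for ZNF627, -2.41 for ZNF564 and -2.32 for ZNF410. MM.1S exceeded 8226R5 by 4.56 for ZNF160, 3.63 for ZNF223 and 3.56 for ZNF320. The differences were -3.29 for ZNF121, -2.66 for ZNF200 and -2.40 for ZNF410. All of these lower values rest on MM.1S arrays where the treated signal was undetected, so their size is that of the fit and not a bound. U266 exceeded 8226R5 by 1.30 for ZNF823, 1.22 for ZNF493 and 1.15 for ZNF443. It lay below 8226R5 with differences of -2.19 for ZNF121, -1.21 for ZNF24 and -1.05 for ZNF217. Between U266 and 8226R5 the treatment dose was the same, and between MM.1S and either of them it was not.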

How the results depend on the processing

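For genes named by rule, 140 values of single probes were recomputed under 24 alternatives, each in the comparison that named the gene. Other single-probe values above were not, among them those of the co-repressors, the other families and the probes below the threshold. Of the recomputed results 3005 kept direction and side of the threshold, 102 lost the threshold and 34 gained it. Another 19 reversed, meaning that the sign changed and at least 1 of the 2 settings passed the threshold, and 35 changed sign without passing it under either setting. Median scaling on all probes gave 25 rises and 161 falls in MM.1S, 9 and 137 in U266, 51 and 16 in 8226R5, 23 and 157 in the 3-line mean, and 7 rises in all 3 lines. It reversed ZNF148 (-1.03), ZNF263 (-1.51), ZNF281 (-1.04), ZNF593 (-0.47), ZNF598 (-1.24 and -0.87), ZNF644 (-0.27) and ZNF91 (-0.37) in MM.1S. In U266 it reversed ZNF143 (-0.50), ZNF148 (-0.55), ZNF207 (-0.10), ZNF263 (-0.24), ZNF395 (-0.51), ZNF410 (-0.41), ZNF593 (-0.20) and ZNF746 (-0.55). A reversed value need not have been called in the main fit: ZNF143 and ZNF148 in U266 (0.12 and 0.04) and ZNF263 in MM.1S (0.18) were not. Scaling on probes detected on all arrays gave 99 rises and 46 falls in MM.1S, 42 falls in 8226R5, 50 in the 3-line mean and 1 rise in all lines, and reversed ZNF274 (0.13) and ZNF706 (0.28 and 0.45) in MM.1S. Median scaling on the tested probes, chosen after seeing the data, and an offset of 50 each gave 7 rises in 8226R5 and 1 in all lines. The cause of these moves was not tested. When only probes detected on all 12 arrays are kept, 119 members enter. In MM.1S 55 of them rose and 44 fell (46.2% and 37.0%), against 31.8% and 52.6% at the same control level. The members' median there was 0.18, against -0.29 at that level, so its sign differed from that of the main fit. There were 17 falls in U266 and 36 in the 3-line mean, but 8 rises in 8226R5 and 3 in all lines. Fewer probes also enter at a control mean of at least 8, with 38 rises and 48 falls in MM.1S and 13 falls in U266. The 3-line mean then had 33 rises and 37 falls, and 83 probes differed between lines. The replicate block gave 61 rises and 90 falls in MM.1S, 31 and 25 in U266 and 4 and 24 in 8226R5, and the samples share only a number. Leaving out 1 array at a time gave 58 to 66 rises and 79 to 94 falls in MM.1S, 21 to 43 and 14 to 36 in U266, 3 to 6 and 10 to 38 in 8226R5, 51 to 59 and 68 to 83 in the 3-line mean, 3 to 14 falls in all lines and 131 to 159 differences between lines. In U266 the fewest rises (21) came without the first U266 control array and the most (43) without either treated MM.1S array, and the fewest falls (14) without either U266 control and the most (36) without either treated MM.1S array. With 1 array left in a group, that array is assumed to vary like the other groups. Below background no level can be read, which limits the falls in MM.1S.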

Other observations

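ZNF probes under the control threshold, of genes that also have a member probe, add some changes that were picked after their values were seen. A ZNF451 probe, from a gene that encodes a SUMO ligase, had a control mean of 6.78 and rose in all 3 lines. It rose by 1.47 in MM.1S, 0.66 in U266 and 0.89 in 8226R5 (limma adjusted p 3.6e-06, 0.00296 and 0.00223). The brighter ZNF451 member probe instead had 8.48 and 8.52 in treated MM.1S cells against 9.11 and 9.04 in MM.1S controls. It had 9.81 and 9.68 in treated 8226R5 cells against 9.95 and 9.81 in controls, and 8.86 and 8.90 in treated U266 cells against 8.64 and 8.84. A ZNF473 probe (6.65), from the gene of a protein of histone pre-mRNA processing, fell by 0.80 in MM.1S and by 1.26 in U266. It changed by -0.04 in 8226R5. The ZNF473 member probe was higher in treated MM.1S cells, at 8.56 and 8.66 against 7.97 and 8.11 in MM.1S controls. In U266 it was lower, at 8.22 and 8.27 in treated cells against 8.45 and 8.50 in controls. Both ZNF3 probes under the threshold fell in MM.1S (changes of -1.44 and -0.97) and in U266 (-1.19 and -0.74). They changed by 0.42 and 0.44 in 8226R5 without passing the test. The ZNF3 member probe changed by 0.27 in MM.1S, -0.49 in U266 and -0.24 in 8226R5, and passed the test in none of the lines.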
